A study of Arabidopsis thaliana with 4 samples.

Results

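WRKY transcription factor genes were followed in axillary shoots and buds of the thale cress Arabidopsis thaliana, accession Col-0, which is widely used in the laboratory. The members were all probe sets that the array annotation assigned to exactly 1 locus whose symbol or synonym is WRKY and a number. This gave 7 loci with 1 probe set each, out of 13286 loci that could be named; the arrays held 22746 probe sets beside controls. The gene table used for naming lists 71 such loci. The other 64 had no probe set named through the annotation used and were not analysed here. Of the 22746 probe sets 13436 were matched to 1 locus, so the arrays may read some of these 64 through unnamed probe sets. The members were WRKY6 (AT1G62300), ZAP1 (AT2G04880, synonym WRKY1), WRKY20 (AT4G26640), WRKY22 (AT4G01250), WRKY42 (AT4G04450), WRKY47 (AT4G01720) and WRKY53 (AT4G23810).

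The samples were axillary shoots taken 24 h after decapitation (2 arrays) and axillary buds taken before it (2 arrays). In decapitation the tip of the main shoot is cut off. All plants were Col-0 with no named allele or transgene, grown in a soil mix under continuous light. RNA levels were measured on ATH1 arrays, on which each gene is read by a set of short oligonucleotides called a probe set. No undecapitated plants were sampled at the later time, so decapitation, wounding, 24 h of age and tissue make-up cannot be told apart. These are whole buds and shoots, in which fewer cells of a type and less RNA per cell cannot be told apart either.

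WRKY factors are plant transcription factors named after the amino acids W, R, K and Y at the start of their DNA-binding domain, which also holds a zinc finger. They bind a short DNA element called the W box, found in the promoters of many defence genes and of many WRKY genes themselves. Many family members are known to respond at the transcript level to wounding, pathogens, salicylic acid or leaf ageing, and several are phosphorylated by mitogen-activated protein kinases. The family is divided by structure: group I proteins carry a pair of WRKY domains, whereas groups II and III carry a single domain and differ in the form of the zinc finger. Of the genes analysed here ZAP1 and WRKY20 belong to group I, WRKY6, WRKY42 and WRKY47 to subgroup IIb, WRKY22 to subgroup IIe and WRKY53 to group III.

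No WRKY gene analysed here was called higher or lower in the shoots. WRKY53, a regulator of leaf senescence, was nearest to a call, with signals in shoots at 46.0% of those in buds. The group I genes ZAP1 and WRKY20 and the IIe gene WRKY22 had geometric means in shoots and buds within 1.24-fold of each other. The test was limited to the brighter 60% of probe sets, ranked by mean log2 signal, which put the lowest geometric mean tested at 23.1. ZAP1, WRKY20, WRKY22 and WRKY47 passed this filter, and WRKY53, WRKY6 and WRKY42 lay below it. Of the 4 tested members 0 were higher and 0 were lower (limma, Benjamini-Hochberg adjusted p of at most 0.05), and 0 of the 4 had an unadjusted p under 0.05. Among all 13648 tested probe sets 22.1% were called, 10.2% higher and 12.0% lower. Of these calls 45.9% were higher, a share that was 61.1% with the array medians set equal and 58.6% with spike scaling on control probe sets. In a fit over all 22746 probe sets 0 of the 7 members passed, and 1, WRKY53, had an unadjusted p under 0.05. Single values were tested only in a fit across many probe sets, because with 2 arrays a group the smallest two-sided p of an exact permutation test is 0.333.

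**Figure D1:**
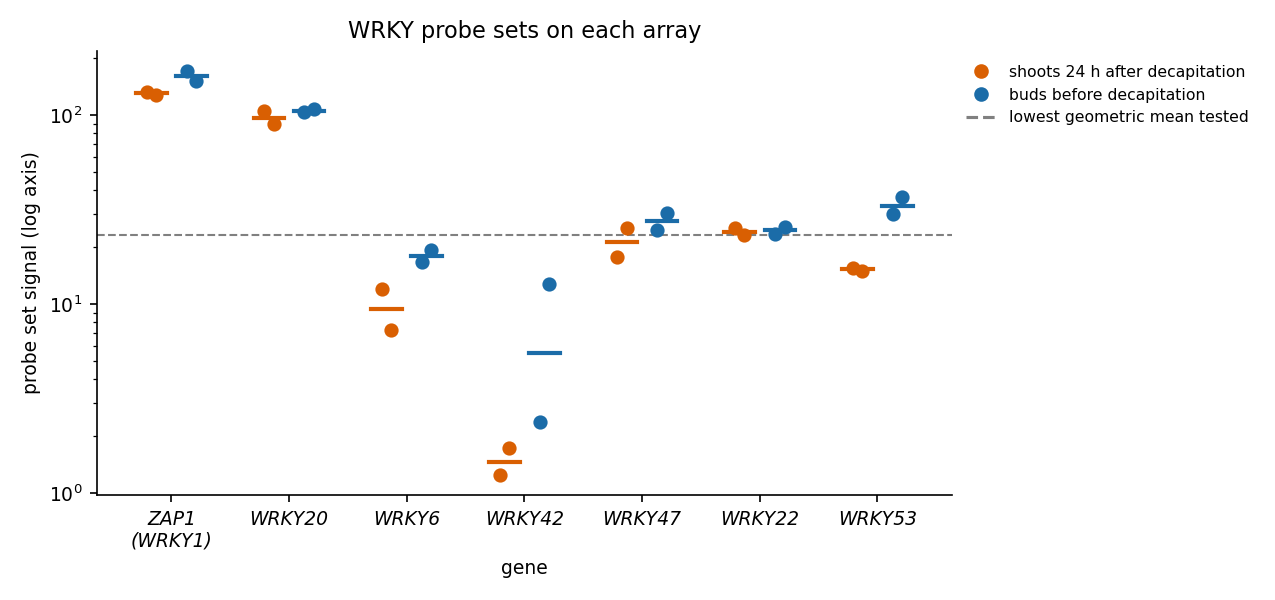
Signal of the 7 WRKY probe sets on each array (log axis), with shoots at left and buds at right for each gene; points are single arrays, short bars are geometric means of 2 arrays, and the dashed line is the lowest geometric mean tested, 23.1. WRKY53, WRKY6, WRKY42 and ZAP1 have both shoot points below both bud points, whereas the points of WRKY20, WRKY22 and WRKY47 overlap.

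WRKY53 encodes a group III factor that promotes leaf senescence and takes part in basal defence. Its signal was 15.5 and 15.0 on the shoot arrays, against 29.8 and 36.8 on the bud arrays. The groups were well apart: the lower bud signal was 1.92 times the higher shoot signal, while replicate arrays differed by 1.04-fold in shoots and 1.23-fold in buds. The mean was 15.2 ± 0.385 in shoots and 33.3 ± 4.93 in buds (SD, n = 2 each), and the ratio of geometric means was 2.17-fold lower in shoots (log2 fold change −1.12). Both shoot signals were below 23.1, so the size of this fold is uncertain. The geometric mean over all arrays was 22.5, just under the lowest value tested, so WRKY53 was not part of the test of the brighter probe sets. In the fit over all 22746 probe sets its limma adjusted p was 0.0730, which misses the threshold that 10.1% of these probe sets passed, with a 95% interval from 1.28-fold to 3.69-fold lower. With a wider filter that kept the upper 70% of probe sets, chosen after the values were seen, WRKY53 was the 1 member called, with a limma adjusted p of 0.0344; in that fit 10.7% of probe sets were called lower. Whether WRKY53 is called therefore turns on how many dim probe sets are tested with it. Leaving out any 1 array gave log2 fold changes from −1.27 to −0.97.

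The subgroup IIb genes were measured at low signal. WRKY6 encodes a factor of senescence, defence and phosphate transport. It had signals of 12.0 and 7.31 on the shoot arrays, against 16.6 and 19.3 on the bud arrays. Both shoot signals lay below both bud signals, but all 4 were below 23.1. The mean was 9.66 ± 3.32 in shoots and 17.9 ± 1.87 in buds (SD, n = 2 each), or 1.91-fold lower in shoots by geometric means. Replicates differed by 1.64-fold between the shoot arrays, and the limma adjusted p in the fit over all probe sets was 0.244. Leaving out shoot array 1 gave a log2 fold change of −1.29, and leaving out shoot array 2 gave −0.57.

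WRKY42, which with WRKY6 is known to repress the phosphate exporter gene PHO1 in Arabidopsis, had signals far below the filter. These were 1.24 and 1.73 on the shoot arrays and 2.37 and 12.7 on the bud arrays. The bud arrays differed from each other by 5.37-fold, more than the 3.74-fold difference between the group geometric means. The log2 fold change of −1.90 became −3.12 without bud array 1 and −0.69 without bud array 2, and the limma adjusted p in the fit over all probe sets was 0.270. Detection calls were not used, so neither WRKY6 nor WRKY42 was shown to be above background in either group. WRKY6 and WRKY42 have similar sequences, and cross-hybridization between their probe sets was not tested.

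WRKY47, the third IIb gene, passed the filter narrowly, with a geometric mean of 24.1. Its mean in shoots was below 23.1, so WRKY47 entered the test only through its higher bud signals. Its signals of 17.8 and 25.3 in shoots overlapped those of 24.7 and 30.4 in buds. The mean was 21.5 ± 5.31 in shoots and 27.6 ± 4.03 in buds (SD, n = 2 each). The log2 fold change of −0.37 (SE 0.323) had a limma adjusted p of 0.439, and its 95% interval ran from 2.16-fold lower to 1.29-fold higher. The shoot arrays alone differed by 1.42-fold, which is more than the 1.30-fold between the groups, and the log2 fold change of WRKY47 was −0.12 with shoot array 1 left out and −0.63 with shoot array 2 left out.

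**Figure D2:**
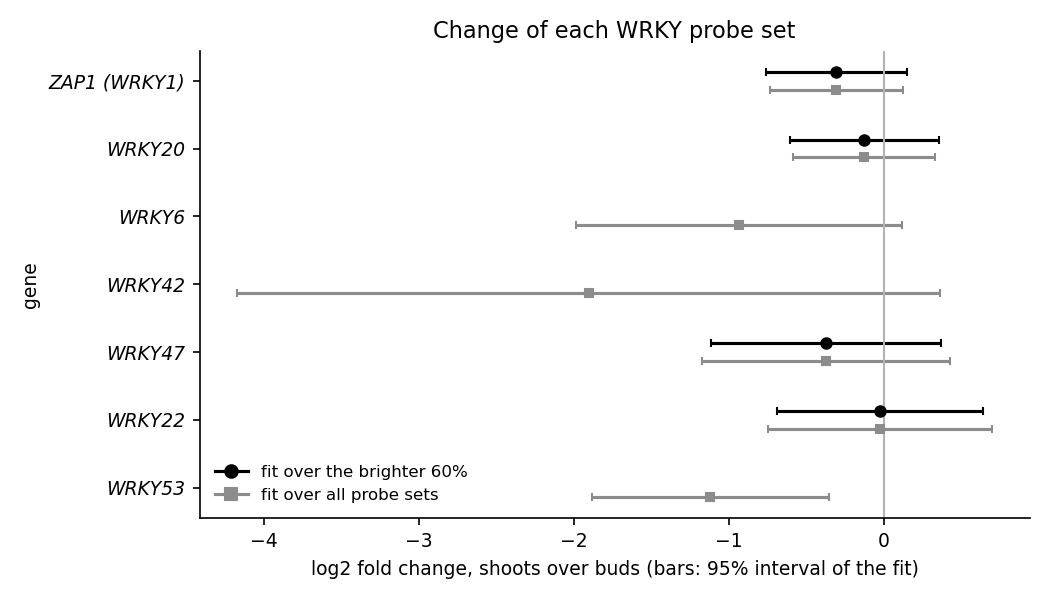
Log2 fold change, shoots over buds, of each WRKY probe set with the 95% interval of the limma fit; black circles are the fit over the brighter 60% of probe sets, which 4 members entered, and grey squares the fit over all probe sets. The interval of WRKY53 lies wholly below 0 before adjustment, from −1.88 to −0.36, and the intervals of the other 6 genes include 0.

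WRKY22 encodes a IIe factor that acts below a mitogen-activated protein kinase cascade in immune signalling. It had nearly the same signal everywhere: 25.1 and 23.2 on the shoot arrays, against 23.5 and 25.6 on the bud arrays. The mean was 24.2 ± 1.34 in shoots and 24.6 ± 1.50 in buds (SD, n = 2 each). The log2 fold change was −0.02 (SE 0.290, limma adjusted p = 0.964). The 95% interval ran from 1.61-fold lower to 1.56-fold higher, so a change within those bounds could have been missed. WRKY22 passed the filter narrowly, with a geometric mean of 24.4, and was not shown to be above background.

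ZAP1 and WRKY20, the group I genes, had signals well above the filter on every array. ZAP1 encodes a zinc-dependent activator that binds the W box. Its signal was 133 and 128 on the shoot arrays, against 171 and 152 on the bud arrays. Both shoot arrays lay below both bud arrays, by a narrow gap: the lower bud signal was 1.15 times the higher shoot signal. The mean was 130 ± 3.06 in shoots and 162 ± 13.8 in buds (SD, n = 2 each). The log2 fold change was −0.31 (SE 0.198, limma adjusted p = 0.298), with a 95% interval from 1.70-fold lower to 1.11-fold higher.

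WRKY20 had signals of 105 and 89.4 on the shoot arrays, against 103 and 108 on the bud arrays. The groups overlapped, since shoot array 1 lay between the bud arrays. The mean was 97.2 ± 11.0 in shoots and 106 ± 3.22 in buds (SD, n = 2 each). The log2 fold change was −0.12 (SE 0.211, limma adjusted p = 0.703), with a 95% interval from 1.52-fold lower to 1.28-fold higher. For WRKY20 it was −0.24 with shoot array 1 left out and −0.0079 with shoot array 2 left out. Among the WRKY genes analysed here the bright ones had the narrowest intervals. The intensity trend of the fit ties the spread used for a probe set partly to its mean signal, so these widths are not a finding about the genes. Changes of 2-fold in signal lay outside the intervals of ZAP1, WRKY20 and WRKY22. For WRKY22, with a signal near the filter, the interval bounds only the probe set signal, and a larger change in transcript could have been missed.

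All 7 members had a negative log2 fold change, as did 56.7% of all probe sets. The median over the 7 was −0.37, against −0.11 over all 22746 probe sets, and over the 4 tested members it was −0.22, against −0.06 over all tested. WRKY47, with the most negative value of the 4, entered the test only through its bud signals, which limits the median of the 4. The shoot arrays lay wholly below the bud arrays for 4 of the 7 members, WRKY53, WRKY6, WRKY42 and ZAP1, and wholly above them for 0. Over all probe sets 31.9% were wholly below and 23.2% wholly above. With the array medians set equal, the median log2 fold change of the tested probe sets moved up by 0.14, and WRKY20 (0.017) and WRKY22 (0.12) then had positive values. Under spike scaling, which moved that median by 0.12, WRKY22 was likewise positive (0.10), and under quantile normalization too (0.14), and the other 5 members stayed negative under these 3 scalings.

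**Figure D3:**
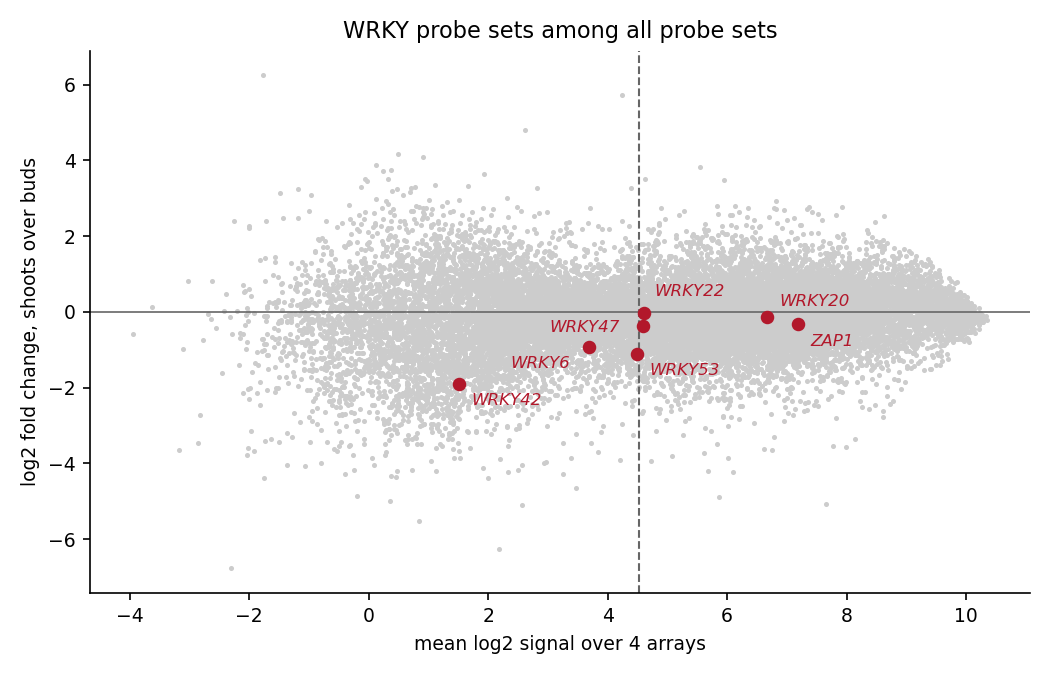
Mean log2 signal over the 4 arrays (x) against the log2 fold change, shoots over buds (y), for all 22746 probe sets (grey) and the 7 WRKY probe sets (red); the dashed line is the filter. The WRKY genes with larger negative values, WRKY42 (−1.90), WRKY53 (−1.12) and WRKY6 (−0.93), lie left of the line, where grey points spread widely, and ZAP1 and WRKY20 lie right of it near 0.

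The arrays themselves were alike in scale. The median signal was 40.9 and 40.6 on the shoot arrays and 46.3 and 43.6 on the bud arrays, and no signal exceeded 1470 on the shoot arrays or 1649 on the bud arrays. The actin control ratio, signal at the 3′ end over signal at the 5′ end and a measure of RNA and labelling quality, was 0.990 and 1.14 on the shoot arrays and 1.66 and 1.38 on the bud arrays. It moved with the groups, as WRKY53 did, and its part in the WRKY values was not tested. Of 14 listed markers of the shoot meristem and axillary bud, 2 had a named probe set. The stem cell peptide gene CLV3 had signals of 4.39 and 1.22 in shoots and 1.06 and 7.32 in buds, and LAS, a gene of axillary meristem formation, 19.6 and 16.1 in shoots and 15.4 and 16.7 in buds. Both lay below 23.1 on all arrays, so the labelled tissue could not be checked with them. Of 4 listed leaf trichome markers 1 had a named probe set, and so did 1 of 4 listed root markers. The trichome gene TRY had 17.7 and 17.5 in shoots and 32.5 and 26.1 in buds, but lay below the filter and was not part of the test. PYK10, a gene known mainly from roots, had 87.3 and 114 in shoots and 43.4 and 82.5 in buds (limma adjusted p = 0.137). Listed markers of stem vasculature and flowers had no named probe set.

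**Figure D4:**
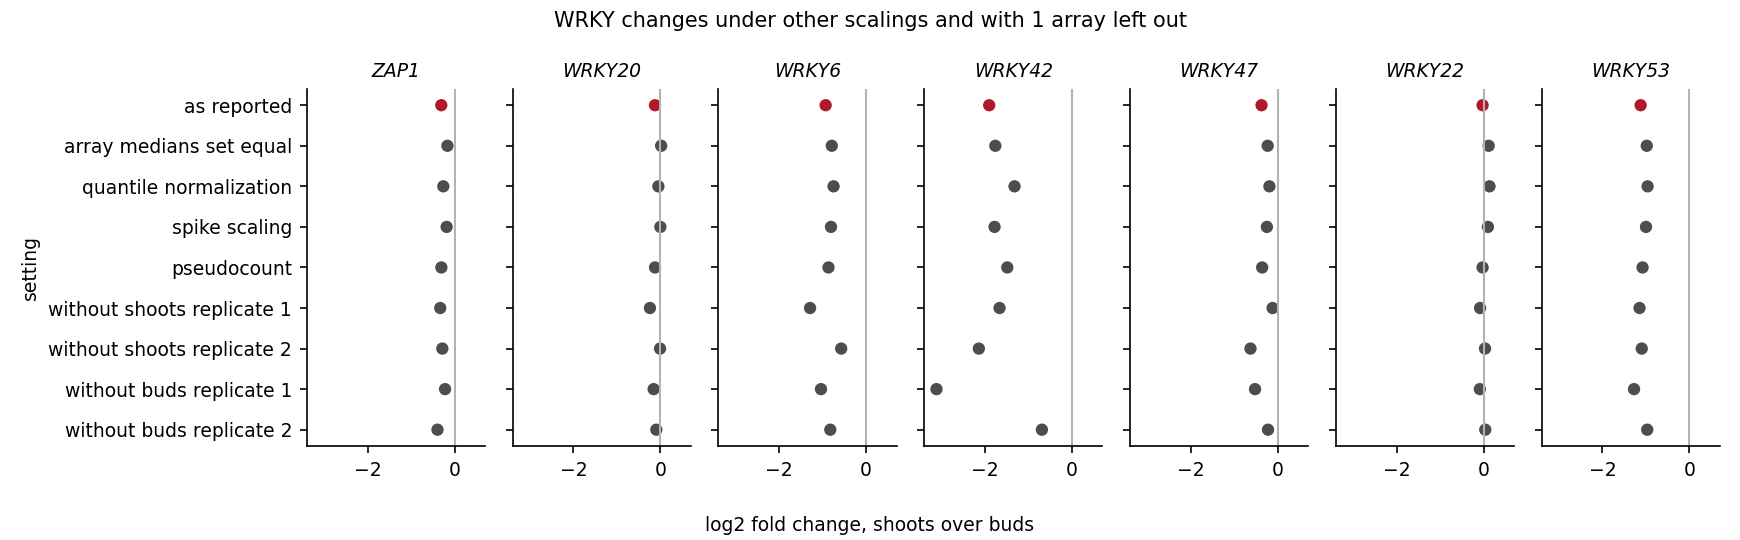
Log2 fold change, shoots over buds (x), of each WRKY gene as reported (red) and under other scalings, a pseudocount or with 1 array left out (grey), 1 panel per gene. WRKY53 stays between −1.27 and −0.96, WRKY42 spreads from −3.12 to −0.69, and WRKY22 lies on both sides of 0.

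Genes of processes linked to WRKY factors were examined in 4 lists: immune response, wound and jasmonate response, kinases and partner proteins, and senescence. A place in a list does not mean that the gene acts directly with a WRKY factor. Of 115 listed loci 10 had a named probe set and 7 were tested, of which 3 fell and 0 rose, where 12.0% of all tested probe sets fell and 10.2% rose. The median log2 fold change of the 7 was −0.68, against −0.06 over all tested probe sets. Coverage this thin says little about the pathways as a whole. The 3 that fell were SAG101, MYC3 and EIN3, from different lists. SAG101 entered the test only through its bud signals, which limits its call and its part in the median. With 1 array left out fewer passed as lower: 0 of the 7 without either shoot array, 2 without bud array 1 and 1 without bud array 2. Calls over all 13648 tested probe sets dropped in the same fits, to 432 lower without shoot array 1, 1277 without shoot array 2, 944 without bud array 1 and 1468 without bud array 2, against 1635 with all arrays.

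SAG101 was the single gene of 31 in the immune list with a named probe set. It encodes a partner of the immune regulator EDS1 and was first known as a senescence-associated gene. It had signals of 18.3 and 18.6 in shoots, against 37.6 and 52.5 in buds, and fell 2.41-fold (log2 fold change −1.27, limma adjusted p = 0.0214). Its shoot signals were below 23.1, so the size of the fold is uncertain. With a geometric mean of 28.7 over all arrays, SAG101 entered the test only through its higher bud signals. SAG101 missed the threshold without shoot array 1 (limma adjusted p = 0.104), shoot array 2 (0.0613) or bud array 2 (0.0848), at log2 fold changes of −1.26, −1.28 and −1.03.

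EIN3, in the senescence list, encodes a central transcription factor of ethylene signalling, which promotes leaf ageing. It had 285 and 250 in shoots, against 500.1 and 498 in buds, and fell 1.87-fold (log2 fold change −0.90, limma adjusted p = 0.0162). The bud arrays were almost equal, and both stood far above the shoot arrays. EIN3 missed the threshold without shoot array 1 (limma adjusted p = 0.0678) or shoot array 2 (0.0720), at log2 fold changes of −0.998 and −0.807. The other senescence genes were AT1G44000, with a log2 fold change of −0.14 (limma adjusted p = 0.738), and SAG29, which lay below the filter. SAG29 had 15.3 and 16.5 in shoots and 13.8 and 10.9 in buds. Both shoot signals were thus above both bud signals (log2 fold change 0.37), but SAG29 was not part of the test of the brighter probe sets.

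MYC3 and MYC4 encode related transcription factors of the jasmonate response. MYC3 had 148 and 133 in shoots, against 243 and 239 in buds, and fell 1.72-fold (log2 fold change −0.78, limma adjusted p = 0.0253). MYC4 had 38.7 and 59.0 in shoots and 59.2 and 53.1 in buds, which overlap (log2 fold change −0.23, limma adjusted p = 0.585). MYC3 missed the threshold whichever array was left out (limma adjusted p from 0.0543 to 0.102, log2 fold changes from −0.86 to −0.70) and with spike scaling (0.123, log2 fold change −0.66). PDF1.2, a defensin gene used as a marker of jasmonate and ethylene defence, lay below the filter, with 9.07 and 15.3 in shoots and 6.95 and 58.8 in buds.

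Of the kinases and partners, BIK1 encodes a cytoplasmic kinase of immune receptors. It had 62.1 and 57.0 in shoots, against 89.0 and 102 in buds. The groups did not overlap, but the log2 fold change of −0.68 did not pass (limma adjusted p = 0.0592). IKU1, which encodes a VQ-motif protein, a class known to bind WRKY factors, had 60.2 and 61.4 in shoots and 79.1 and 88.2 in buds (log2 fold change −0.46, limma adjusted p = 0.166). The receptor gene EFR was below the filter, with 17.1 and 13.1 in shoots and 17.9 and 30.6 in buds. IKU1 and EFR also had both shoot signals below both bud signals, as did 31.9% of all probe sets.

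**Figure D5:**
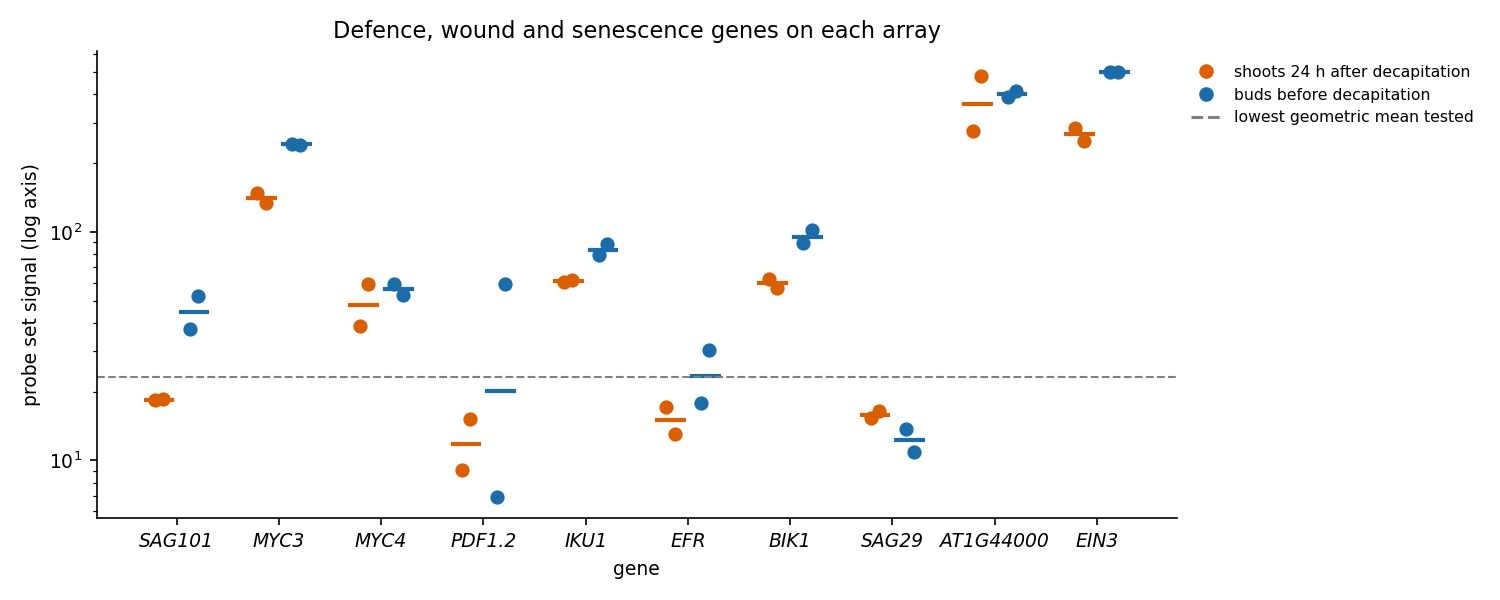
Signal on each array (log axis) of the 10 genes with a named probe set from the immune, jasmonate, kinase and senescence lists. Shoots are at left and buds at right. Points are arrays, short bars are geometric means of 2 arrays, and the dashed line is the lowest geometric mean tested, 23.1. SAG101, MYC3 and EIN3, which passed the test, have both shoot points below both bud points. So do BIK1 and IKU1, which did not pass, and EFR, which lay below the filter, as did 31.9% of all probe sets. The signals of MYC4, PDF1.2 and AT1G44000 overlap. SAG29, below the filter, has both shoot points above both bud points.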

How the data were processed

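Per the labels' protocols, RNA of 4 samples was biotin-labelled with a 3′ in vitro transcription kit for ATH1 arrays. The deposited intensities are linear; the submitters' processing notes name MAS5 and GCOS, without versions. On every array the mean without the lowest and highest 2% of probe sets was 100.0, which hides a change in total RNA per cell. The labels number the replicates but do not tell whether they were separate plants; p-values thus reflect only how these arrays vary, possibly for technical reasons. The number of arrays limits the precision.

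The 64 control probe sets were left out. Log2 intensities, with no pseudocount or further scaling, were compared with limma 3.58.1 in R 4.3.3. The fit had an intensity trend and took all 4 arrays and the upper 60% of probe sets, with a threshold of 0.05. The code was tested on simulated arrays with independent noise, which does not test the calls made on these arrays. Of 22746 probe sets 13436 were matched to 1 locus of the TAIR10.1 gene table, through an older platform annotation. Family groups and gene roles are background. All members are named; of each further list the called loci and up to 4 others are named. The members and lists were chosen with earlier results of these data known. The planned descriptions of WRKY protein motifs and W boxes in promoters were not run, as no sequences were used here.

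Alternatives were no filter, a filter at the upper 70% (chosen after seeing the data), no intensity trend, a pseudocount of 0.910, equal array medians, quantile normalization, spike scaling on 18 control probe sets, a replicate block, and leaving out each array.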

Additional observations from a re-analysis of the deposited data

How the results depend on the processing

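The 4 tested members were called in 0 of 12 other settings. WRKY53, WRKY6 and WRKY42 were not tested in 10 of these; with no filter 0 of all 7 members were called, and with the wider filter, chosen after seeing the data, 1 of 6 was lower, WRKY53. The median log2 fold change of the tested members was −0.22; it was −0.37 over 7 members with no filter, −0.34 over 6 with the wider filter, −0.074 with array medians set equal and −0.092 with spike scaling. With 1 array left out it lay between −0.19 and −0.15. WRKY47, which entered the test only through its bud signals, is part of all these medians. WRKY20 changed sign with array medians set equal (0.017), and WRKY22 with array medians set equal (0.12), quantile normalization (0.14) or spike scaling (0.10). With 1 array left out WRKY22 lay between −0.085 and 0.040, positive without shoot array 2 or bud array 2. The number of companion genes that fell was 3; it was 0 to 2 with 1 array left out, 2 with spike scaling and 4 with the replicate block, under which BIK1 passed (limma adjusted p = 0.0285). With 1 array left out MYC4 lay between −0.53 and 0.074 and AT1G44000 between −0.54 and 0.26, both positive without shoot array 1 only. The cause of these changes was not tested. Over all tested probe sets 3023 were called, against 4657 with the replicate block, 662 without shoot array 1 and 1900 without bud array 1. Array deviations of the same replicate number correlated at r = 0.225 across probe sets, from 1 comparison; the labels do not say what the number marks. With the replicate block the tested members kept their log2 fold changes, and 0 of the 4 passed. Signal over background was not measured here, which limits the values of dim members.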
